A study of Schizosaccharomyces pombe with 4 samples.

Results

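The mitochondrial genome of the fission yeast Schizosaccharomyces pombe carries its own transfer RNA genes, and these were followed in wild-type cells and in the delta4dus strain, which lacks all 4 dus genes by the study's design text. The genes were chosen by their systematic identifier, which starts with SPMITTRNA, and 25 of the 7049 genes in the deposited count table carry it. There were 2 libraries of each genotype, from cells grown in YES, a rich medium, at 32 °C to an optical density near 0.5, and the total RNA was depleted of ribosomal RNA before strand-specific sequencing. The labels name no other allele, marker or treatment. Since they do not tell whether libraries of 1 genotype came from different cultures, each p-value is about the spread between these libraries, which may be technical.

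Mitochondrial tRNAs decode the few messenger RNAs made inside the organelle, most of which encode subunits of the respiratory chain and of ATP synthase. In fission yeast the genes are read from 1 strand as long precursors, and the tRNAs are cut out at their ends by RNase P and RNase Z, given a CCA tail and modified. Dihydrouridine, the product of the dus enzymes, is a reduced uridine found mainly in the D loop of tRNAs. A read counted at a tRNA gene may come from the mature tRNA or from a precursor that runs through it. The deposited counts do not separate these sources, and fewer molecules per cell cannot be told apart from fewer cells that hold them.

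The 25 genes covered all 20 amino acids, with 2 genes each for Arg, Ile, Leu, Met and Ser. They were 69 to 86 bases long (median 73), all lay on the plus strand, and they stood in 8 runs separated by protein-coding, intron or ribosomal RNA genes. Sequences from the RefSeq annotation of the ASM294v3 build were matched to all 25, 23 of them by isotype and length. The genes SPMITTRNAGLU.01 and SPMITTRNAARG.01, whose annotated lengths differ between the builds, were matched as the single genes left of their isotypes. Positions given with a sequence are those of ASM294v3, and all other positions are those of the deposited table (ASM294v2). In the 9 sequences below the first stretch of capitals is the D loop and the second the anticodon. They are the genes that the comparison turns on, namely the gene with the lowest p (Glu), the pair with the largest fold changes (Gly and Lys), the gene with a fold change nearest to 0 (Cys), and genes of 1 isotype that differ in anticodon or role (Ile, Met) or in level (the second Arg gene).

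SPMITTRNAGLU.01, mitochondrial chromosome 18406 to 18478, plus strand: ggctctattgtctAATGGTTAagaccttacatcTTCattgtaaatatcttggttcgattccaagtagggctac
SPMITTRNAGLY.01, 14316 to 14387, plus strand: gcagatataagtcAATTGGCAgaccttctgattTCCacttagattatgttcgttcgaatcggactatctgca
SPMITTRNALYS.01, 2858 to 2930, plus strand: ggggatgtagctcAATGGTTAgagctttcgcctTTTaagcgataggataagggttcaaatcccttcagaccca
SPMITTRNAARG.02, 17462 to 17534, plus strand: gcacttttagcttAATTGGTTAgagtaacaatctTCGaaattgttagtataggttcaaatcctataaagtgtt
SPMITTRNAILE.01, 16664 to 16736, plus strand: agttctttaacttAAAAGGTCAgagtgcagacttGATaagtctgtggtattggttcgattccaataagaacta
SPMITTRNAILE.02, 17544 to 17615, plus strand: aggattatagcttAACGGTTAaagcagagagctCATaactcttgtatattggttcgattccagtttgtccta
SPMITTRNAMET.01, 4591 to 4665, plus strand: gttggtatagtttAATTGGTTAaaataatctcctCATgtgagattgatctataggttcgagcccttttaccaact
SPMITTRNAMET.02, 14083 to 14155, plus strand: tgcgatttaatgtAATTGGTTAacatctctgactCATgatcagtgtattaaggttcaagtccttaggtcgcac
SPMITTRNACYS.01, 17084 to 17152, plus strand: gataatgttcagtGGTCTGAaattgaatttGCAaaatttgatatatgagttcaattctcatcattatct

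The loops were placed from the annotated anticodon and the base pairing of the stems on each side of it. Over the 25 genes the D loop was 6 to 12 bases long with 1 to 7 thymines (uridines in the RNA; median 3), and 24 held GG, the pair of guanines that tRNAs commonly carry there. SPMITTRNAASP.01 was the gene without it. In the short SPMITTRNACYS.01 only 2 of the 3 bases of the D stem paired, so its loop is less certain. The sequences do not show which uridines carry dihydrouridine in the cell. GC content ran from 27.5% in SPMITTRNACYS.01 to 47.9% in SPMITTRNAASP.01. No stretch of 30 bases of any of these genes occurred in the nuclear chromosomes of the reference on either strand, and the longest run shared by 2 of them was 20 bases (SPMITTRNAHIS.01 and SPMITTRNAGLU.01), out of 300 pairs. The highest identity was 72.4%, between SPMITTRNAPHE.01 and SPMITTRNAILE.01. Pairs of 1 isotype had 55.4% (Leu) to 67.6% (Ile) identity. Near-identical copies were therefore absent, but 15 of the 25 genes had a neighbour less than 20 bases away, so 1 sequenced fragment can span more than 1 gene.

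The libraries held 264948323 to 495098038 counts, of which 84.7% to 90.7% fell on ribosomal RNA genes, and 40203853 to 59273688 were left without these. The second delta4dus library had the highest ribosomal share. Counts for single mitochondrial tRNA genes ran from 197 to 9595, so all 25 passed the filter on low counts. Of the deleted genes, dus1, dus2 and dus3 passed the test, with log2 fold changes of −3.86, −2.95 and −1.56, and dus4 did not (−1.23, edgeR adjusted p = 0.626).

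Levels along the mitochondrial genome differed widely. The normalised count per base (counts divided by the relative library size and the annotated length, averaged over the 4 libraries) ran from 3.65 to 75.7, a 20.7-fold range with a median of 31.3. The 5 genes with the highest level were SPMITTRNALYS.01 (75.7), the initiator tRNA gene SPMITTRNAMET.02 (74.2), SPMITTRNASER.02 (70.2), SPMITTRNAPHE.01 (68.6) and SPMITTRNAGLY.01 (67.2). The lowest were SPMITTRNATHR.01 (3.65), SPMITTRNAARG.01 (5.08), SPMITTRNACYS.01 (7.44), SPMITTRNAILE.01 (8.56) and the elongator gene SPMITTRNAMET.01 (11.7). On the same scale the other 13 mitochondrial genes ran from 2.54 for atp8, an ATP synthase subunit gene, to 590 for the longer ribosomal RNA gene, with 347 for atp9 and 117 for cox2, a cytochrome oxidase subunit gene. How far the recovery of such short RNAs differed between genes was not measured here.

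**Figure D1:**
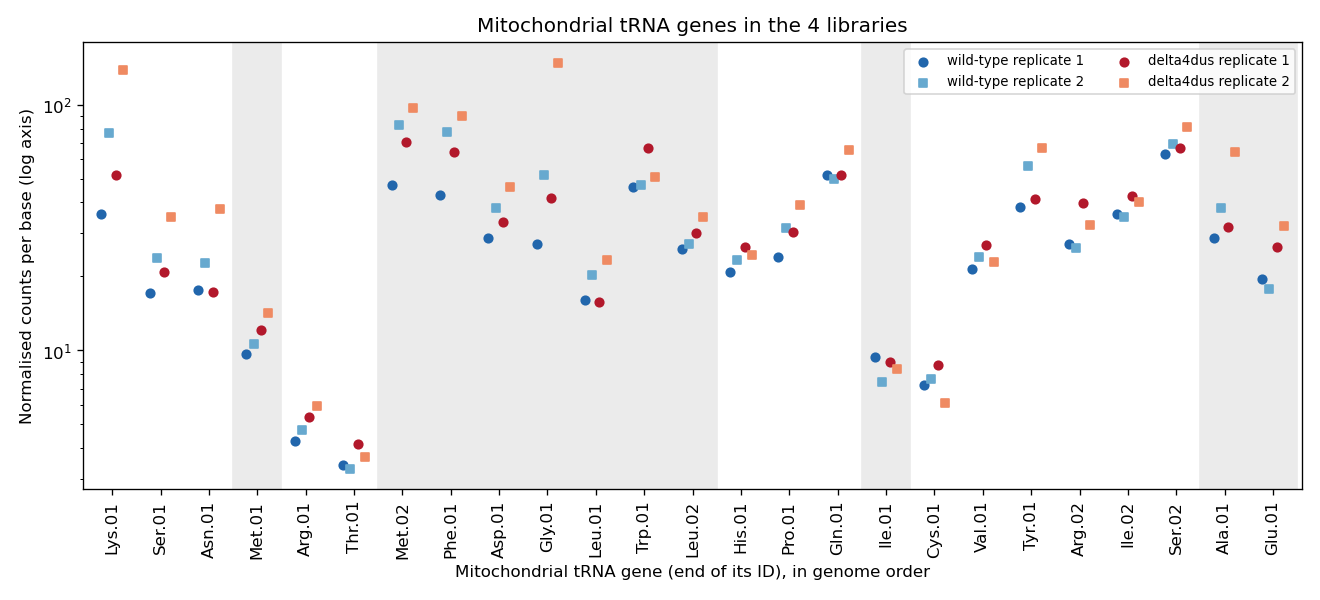
Normalised counts per base (log axis) of the 25 mitochondrial tRNA genes in genome order, 1 point per library; white and grey bands mark the 8 runs of adjacent genes. Levels span 3.65 to 75.7 on average, and in SPMITTRNALYS.01 and SPMITTRNAGLY.01 the 2 libraries of a genotype lie far apart.

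Genes of 1 isotype were not at 1 level. The initiator gene SPMITTRNAMET.02 (14081 to 14153) had 47.2, 82.5, 70.6 and 96.7 normalised counts per base in wild-type 1, wild-type 2, delta4dus 1 and delta4dus 2. The elongator gene SPMITTRNAMET.01 (4591 to 4665) had 9.70, 10.6, 12.2 and 14.2 in the same order. The initiator gene was thus the higher in every library. SPMITTRNAILE.02 (17542 to 17613) carries the anticodon CAU, which in bacteria is modified at its first base so that it reads an isoleucine codon, and had 35.8, 34.8, 42.4 and 40.2. SPMITTRNAILE.01 (16662 to 16734), with the anticodon GAU, had 9.41, 7.45, 8.94 and 8.42. Of the Arg genes, SPMITTRNAARG.02 (anticodon UCG, 17460 to 17532) had 27.2, 26.1, 39.9 and 32.4. SPMITTRNAARG.01 (anticodon UCU, 9818 to 9894) had 4.29, 4.73, 5.35 and 5.96. In the Ile pair and in the Arg pair, too, every value of the second gene was above every value of the first. Of the Ser genes, SPMITTRNASER.02 (anticodon UGA, 17635 to 17716) had 63.2, 69.4, 66.9 and 81.5, and SPMITTRNASER.01 (anticodon GCU, 2968 to 3050) had 17.2, 23.9, 20.9 and 34.8. The Leu genes were closer, at 25.9, 27.0, 29.95 and 35.0 for SPMITTRNALEU.02 (anticodon UAG, 14596 to 14669) and 16.1, 20.3, 15.7 and 23.3 for SPMITTRNALEU.01 (anticodon UAA, 14394 to 14476). SPMITTRNALEU.02 was the higher in each library.

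Between the genotypes, no mitochondrial tRNA gene passed the test. Of the 25, 0 were called at an adjusted p under 0.05 in edgeR's quasi-likelihood fit (Benjamini-Hochberg over the 6813 genes tested), where 5 genes (0.0734%) were called, 1 of them higher (0.0147%) (adjusted p of the 25 from 0.484 to 0.997). All 25 log2 fold changes lay above 0, from 0.00 (SPMITTRNACYS.01) to 1.27 (SPMITTRNAGLY.01) with a median of 0.33, while 50% of all genes lay above 0. With library totals alone in place of TMM scaling, 4 of the 25 lay above 0, but the median of all genes was then −0.42, and all 25 lay above that median. Without the second delta4dus library 19 of the 25 lay above 0, and without the first wild-type library 21. At an unadjusted p under 0.05 there were 6 of the 25 (24%), all higher, against 7.57% of all genes in either direction and 3.55% in that direction. DESeq2 called 1 of the 25, SPMITTRNAGLU.01, and 0.763% of all genes.

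Both delta4dus libraries lay above both wild-type libraries in 10 of the 25 genes (40%), against 19% of all genes, and below them in none of the 25, against 19.7%. The 10 were the genes for Met (elongator), Arg (both), Thr, Trp, Leu (SPMITTRNALEU.02), His, Gln, Ile (SPMITTRNAILE.02) and Glu. Of the 171 nuclear tRNA genes, both delta4dus libraries lay above both wild-type libraries in 50 and below them in 1. Among those 171, 30 were higher at an unadjusted edgeR p under 0.05. The 25 mitochondrial genes come from the same 4 libraries and from shared precursors, so they are not independent of each other.

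**Figure D2:**
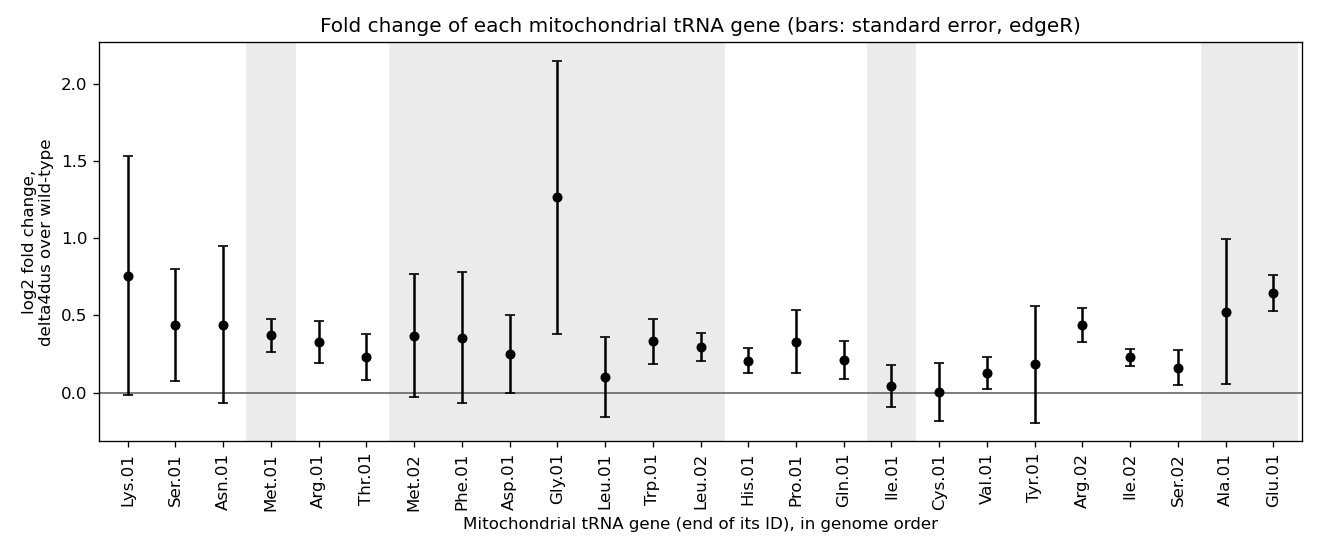
log2 fold change of delta4dus over wild-type for each mitochondrial tRNA gene in genome order, with the standard error of the edgeR fit as bars; bands mark the 8 runs of adjacent genes. All 25 points lie above 0 with TMM scaling, with standard errors from 0.0565 (SPMITTRNAILE.02) to 0.887 (SPMITTRNAGLY.01), and 0 passed the test over all genes (with library totals alone, 4 lie above 0).

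SPMITTRNAGLU.01 (18404 to 18475), which encodes the tRNA that carries glutamate, had the lowest p of the 25. Its normalised counts were 1410 and 1281 in wild-type, against 1896 and 2315 in delta4dus, or 1346 ± 91.0 and 2106 ± 296 (SD, n = 2 libraries each). Both delta4dus libraries were the higher, by 1.56-fold in the fit, a log2 fold change of 0.64 (SE 0.115, 95% interval 0.35 to 0.94). The adjusted p was 0.484 by edgeR and 0.00495 by DESeq2, and over all alternatives it ran from 0.00495 to 0.999. In the authors' deposited table its log2 fold change was 0.65 with an adjusted p of 0.00382 (DESeq2, by the submitters' notes). It was 1 of the 49 genes, out of 7000 there, with an adjusted p under 0.05. The authors' deposited table gave an adjusted p under 0.05 to no other gene of the 25, and all 25 lay above 0 in it.

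SPMITTRNAGLY.01 (14314 to 14385), the gene of the tRNA for glycine, had the largest log2 fold change, 1.27 (SE 0.887, edgeR adjusted p = 0.817). Its normalised counts were 1951 and 3731 in wild-type, against 3008 and 10670 in delta4dus. The first delta4dus library lay between the wild-type libraries, so the groups overlapped, and the second delta4dus library carried the difference. Without that library the value was 0.08. SPMITTRNALYS.01 (2857 to 2929), for lysine, had 2611 and 5602 in wild-type, against 3780 and 10118 in delta4dus, for a log2 fold change of 0.76 (SE 0.775, edgeR adjusted p = 0.887). It overlapped in the same way, and its value was −0.12 without the second delta4dus library. SPMITTRNAALA.01 (18057 to 18129), for alanine, had 2099 and 2764 in wild-type, against 2320 and 4686 in delta4dus, with 0.53 (SE 0.473) in all 4 libraries and −0.07 without the second delta4dus library. In these 3 genes the replicates of 1 genotype differed by more than the genotypes.

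In SPMITTRNAARG.02, for arginine, the replicates differed by less than the genotypes. Its normalised counts were 1985 and 1906 in wild-type, against 2915 and 2363 in delta4dus, for a log2 fold change of 0.44 (SE 0.110, 95% interval 0.16 to 0.72, edgeR adjusted p = 0.599). SPMITTRNAILE.02 had 2574 and 2503 in wild-type, against 3052 and 2897 in delta4dus, for a log2 fold change of 0.23 (SE 0.0565, edgeR adjusted p = 0.592). The groups did not overlap in either gene. SPMITTRNAMET.01 had 728 and 798 in wild-type, against 912 and 1062 in delta4dus, with a log2 fold change of 0.37 (SE 0.109, edgeR adjusted p = 0.626), again without overlap.

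The initiator gene SPMITTRNAMET.02 had 3442 and 6019 normalised counts in wild-type, against 5151 and 7059 in delta4dus, and its neighbour SPMITTRNAPHE.01 (14159 to 14230), with 5 bases between them, had 3092 and 5573 and then 4616 and 6468. These neighbours followed each other from library to library, and in both the first delta4dus library lay below the second wild-type library. Their log2 fold changes were 0.37 and 0.36 (SE 0.399 and 0.423). SPMITTRNASER.02 had 5182 and 5689 in wild-type, against 5482 and 6681 in delta4dus, with a log2 fold change of 0.16, and overlapped as well.

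Among the genes with the smallest fold changes, SPMITTRNACYS.01 (17082 to 17150), for cysteine, had 498 and 529 normalised counts in wild-type, against 603 and 424 in delta4dus. The delta4dus libraries lay on both sides of wild-type, and the log2 fold change was 0.00 (95% interval −0.47 to 0.48). SPMITTRNAILE.01 had 687 and 544 and then 653 and 615, with a log2 fold change of 0.04 (95% interval −0.31 to 0.39). SPMITTRNALEU.01 had 1334 and 1685 and then 1303 and 1936, with 0.10 (95% interval −0.68 to 0.88), and SPMITTRNAVAL.01 (17166 to 17238), for valine, 1561 and 1759 and then 1956 and 1670, with 0.13 (95% interval −0.13 to 0.39). The low-level genes SPMITTRNATHR.01 and SPMITTRNAARG.01 had 250 and 241 against 305 and 270, and 330 and 364 against 412 and 459. In these last 2 genes the groups did not overlap, by a narrow margin in the Thr gene, with log2 fold changes of 0.23 and 0.33.

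SPMITTRNALEU.02 had 1919 and 1999 normalised counts in wild-type, against 2217 and 2591 in delta4dus, with a log2 fold change of 0.29 (SE 0.0892, edgeR adjusted p = 0.626). SPMITTRNAHIS.01 (15550 to 15622), for histidine, had 1522 and 1699 and then 1921 and 1794, with 0.21 (SE 0.0802, edgeR adjusted p = 0.645). The groups did not overlap in either gene, and both intervals lay above 0. In SPMITTRNAGLN.01 (15747 to 15819), for glutamine, the values were 3766 and 3624 and then 3781 and 4782, so that the first delta4dus library was barely above wild-type. The genes for Asp, Pro, Tyr, Asn and the first Ser gene overlapped between the genotypes, with log2 fold changes from 0.18 (Tyr) to 0.44 (Asn, Ser). SPMITTRNATRP.01 (14492 to 14563), for tryptophan, was highest in the first delta4dus library, with 3343 and 3379 in wild-type, against 4816 and 3649 in delta4dus. In SPMITTRNAASN.01 the first delta4dus library was the lowest of the 4, with 1253 and 1614 in wild-type, against 1228 and 2672 in delta4dus.

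Summed by isotype, no isotype passed in the fit with genotype as its only term, where 5 of 6808 rows (0.0734%) were called. The 2 Arg genes together had 2315 and 2270 normalised counts in wild-type, against 3327 and 2823 in delta4dus, for a log2 fold change of 0.42 (SE 0.0885, edgeR adjusted p = 0.511), and the Ile genes 3261 and 3046 against 3705 and 3512 (0.19, SE 0.0613, edgeR adjusted p = 0.628). Both sums were without overlap. The sums for Met (0.37, SE 0.348), Ser (0.23, SE 0.174) and Leu (0.21, SE 0.147) overlapped between the genotypes. Leaving out single libraries moved the Met sum from 0.056 (without the first wild-type library) to 0.77 (without the second). The Ser sum ran from 0.017 and the Leu sum from 0.023 (both without the second delta4dus library) to 0.42 and 0.38 (both without the first). The Arg and Ile sums ran from 0.30 to 0.54 and from 0.15 to 0.24.

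By position, the 8 runs of adjacent genes ranged from 1.03-fold (Ile alone) to 1.55-fold in delta4dus over wild-type, and differences between runs were not tested. In the run between the 2 ribosomal RNA genes (Lys, Ser, Asn), the summed normalised counts were 5289 and 9196 in wild-type, against 6740 and 15676 in delta4dus. In the run of 7 genes between cob, the cytochrome b gene, and atp6 (Met, Phe, Asp, Gly, Leu, Trp, Leu) they were 17118 and 25094, and then 23471 and 35663. Both runs overlapped between the genotypes. The run of 6 genes between atp8 and atp9 (Cys, Val, Tyr, Arg, Ile, Ser) had 15094 and 17250 in wild-type, against 17557 and 19744 in delta4dus, without overlap and at 1.15-fold. The last run, Ala and Glu between atp9 and cox2, had 3509 and 4046 against 4216 and 7001, at 1.48-fold and also without overlap. In the annotation the RNA of mitochondrial RNase P, rnpB, lies between these 2 tRNA genes, and it was not analysed here. Across the 25 genes, Spearman's rho between the order along the genome and the log2 fold change was −0.31. With the difference between replicates the rho of that order was −0.45 in wild-type and −0.33 in delta4dus. These values describe genes measured in the same libraries.

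The replicates of each genotype differed from each other in a shared pattern. The second library was above the first in 19 of the 25 genes in wild-type and in 17 of the 25 in delta4dus, and in 15 genes in both. The median log2 difference was 0.16 in wild-type and 0.29 in delta4dus. The largest were 1.10 and 1.42 for SPMITTRNALYS.01 and 0.94 and 1.83 for SPMITTRNAGLY.01, while SPMITTRNATRP.01 had 0.02 and −0.40 and SPMITTRNACYS.01 0.09 and −0.51. In 17 of the 25 genes the larger of these differences exceeded the genotype difference. The larger of 2 differences between single libraries can often exceed a difference of means, and the share over all genes was not computed. Across the 25 genes Spearman's rho between the wild-type and the delta4dus difference was 0.74, and over all 6813 genes tested it was 0.51. Genes of higher GC content had the more positive differences of the second over the first library. Spearman's rho was 0.59 in wild-type and 0.74 in delta4dus, against 0.11 for GC content and the log2 fold change between genotypes. The number of thymines in the D loop had a rho of 0.15 with that fold change, and a Pearson's r of −0.033, so the sign depended on the measure. The mean level per base had a rho of 0.47 with the wild-type and of 0.48 with the delta4dus replicate difference. In all, 18 relations of sequence, level or position with these differences were computed over the same 25 genes, and they are descriptions, since the genes share the 4 libraries.

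**Figure D3:**
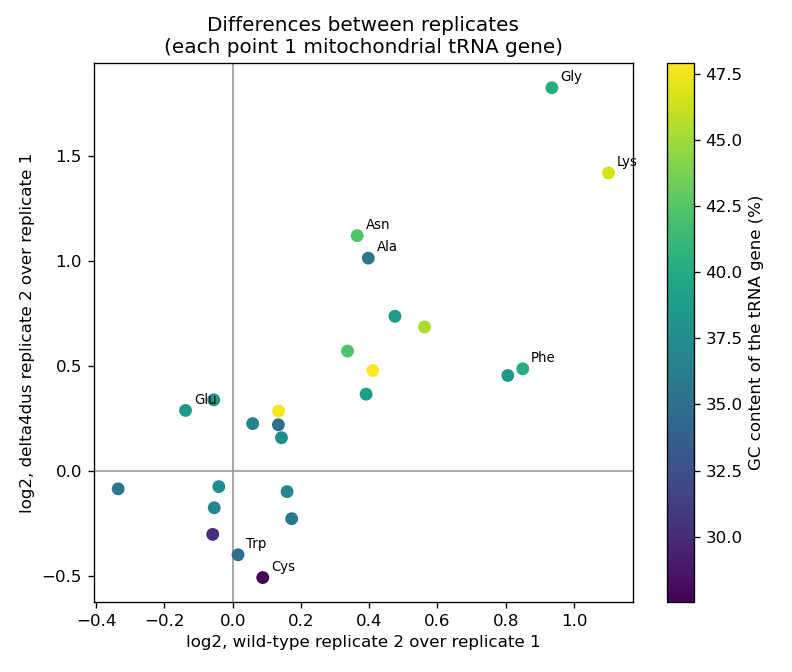
Difference between replicate 2 and replicate 1 (log2) in wild-type (x axis) and in delta4dus (y axis) for each of the 25 mitochondrial tRNA genes, coloured by GC content. SPMITTRNAGLY.01 and SPMITTRNALYS.01 are the farthest from 0, and 15 genes lie above 0 on both axes.

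The sum over all 25 genes showed the same order of libraries. Summed normalised counts were 50092 and 65217 in wild-type, against 62253 and 90010 in delta4dus, so the first delta4dus library lay below the second wild-type library. The log2 fold change of the sum was 0.40 (SE 0.230, 95% interval −0.19 to 1.00, edgeR adjusted p = 0.741). In the fit with that sum 0.0884% of the 6789 rows were called. The exact two-sided permutation test over the 4 libraries gave p = 0.667, where the smallest p that 2 against 2 libraries allow is 0.333. Without the second delta4dus library the value was 0.11, without the first wild-type library 0.22, without the second wild-type library 0.61 and without the first delta4dus library 0.64. Other short or structured RNA moved with it. Nuclear tRNA genes summed to 154496 and 215436 in wild-type, against 196954 and 373481 in delta4dus, and nuclear ribosomal RNA genes under 200 bases to 37990400 and 76571500, and then 44874900 and 93151200. In both sums the second library of each genotype was the higher one, as in the mitochondrial tRNA sum. Their part in the result was not tested.

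**Figure D4:**
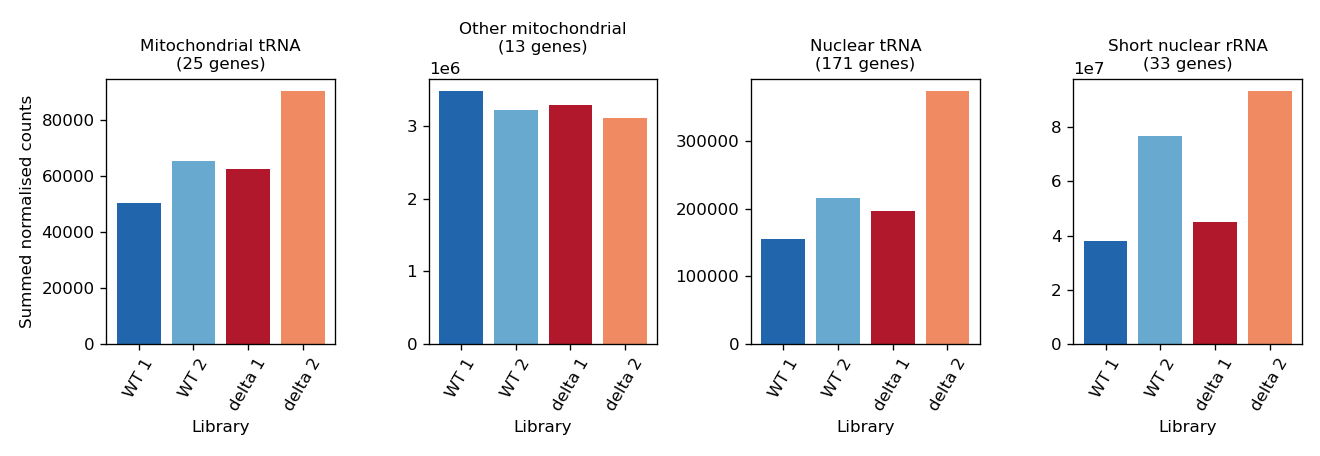
Summed normalised counts per library for mitochondrial tRNA, the other mitochondrial genes, nuclear tRNA and nuclear ribosomal RNA genes under 200 bases (bars start at 0; each panel has its own scale, 1 bar per library). In the tRNA and short ribosomal RNA panels the second library of each genotype is above the first, and in the panel of other mitochondrial genes it is below.

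Against the other genes of the same genome, mitochondrial tRNA counts came to 1.44% and 2.02% of the other mitochondrial counts in wild-type, against 1.90% and 2.89% in delta4dus. The ratio needs no scaling between libraries. Most of the other mitochondrial counts fell on the 2 ribosomal RNA genes, and how the depletion of ribosomal RNA acted on these was not measured. The log2 difference was 0.46 (exact two-sided permutation p = 0.667, the smallest possible being 0.333), and the groups overlapped. Leaving out single libraries gave 0.15 (without the second delta4dus library) to 0.76 (without the first). With the ribosomal RNA genes left out of the other counts, the ratio was 5.81% and 7.86% in wild-type, against 6.94% and 11.3% in delta4dus. The log2 difference was then 0.39 (exact two-sided permutation p = 0.667), and the groups overlapped again. The 13 other mitochondrial genes had a median log2 fold change of −0.08, with 5 above 0, 8 below and 0 called. Their sum lay at 3476100 and 3227330 in wild-type, against 3283690 and 3112350 in delta4dus. The genes atp6 and rps3, which encode an ATP synthase subunit and a ribosomal protein, were lower in the second library of both genotypes. The value for atp6 was 32997 and 19261 in wild-type, against 32600 and 11262 in delta4dus. Of the tRNA genes that flank atp6, SPMITTRNALEU.02 was higher in the second library of both genotypes, and SPMITTRNAHIS.01 was higher in the second wild-type library and lower in the second delta4dus library, by 0.16 and −0.10 on the log2 scale.

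Against nuclear tRNA, mitochondrial tRNA counts came to 32.4% and 30.3% in wild-type, against 31.6% and 24.1% in delta4dus, a log2 difference of −0.18 (exact two-sided permutation p = 0.667). The 171 nuclear tRNA genes had a median log2 fold change of 0.66, with 169 above 0 and 0 called. By isotype, the nuclear Cys genes summed to 204 and 187 normalised counts in wild-type, against 578 and 695 in delta4dus, while the mitochondrial Cys gene had 498 and 529, and then 603 and 424. Nuclear Trp genes summed to 85.1 and 78.2, and then 164 and 240, beside 3343 and 3379, and then 4816 and 3649, for the mitochondrial Trp gene. The difference between the mitochondrial and the nuclear genes of these isotypes was not tested. Nuclear Cys and Trp were not typical of the nuclear isotypes. Their log2 ratios of the delta4dus to the wild-type mean were 1.70 and 1.31. Nuclear Val had 1.44, and the remaining nuclear isotypes ran from 0.21 (Met) to 0.99 (Phe).

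Nuclear genes were listed by symbol for mitochondrial transcription and RNA processing, tRNA modification and tRNA synthetases. Whether each product acts in mitochondria was not checked. Of these listed genes, 0 passed the edgeR test over all genes, and 0 had an unadjusted p under 0.05. Of 20 genes of mitochondrial transcription and RNA processing, 9 lay above 0 and 11 below, with a median log2 fold change of −0.02. The 3 with the smallest p were rpo41, which encodes the mitochondrial RNA polymerase (0.12, edgeR adjusted p = 0.669), sls1, annotated as a translation factor (−0.14, edgeR adjusted p = 0.716) and ppr10, a pentatricopeptide repeat protein gene (−0.11, edgeR adjusted p = 0.742). Of 10 tRNA modification genes other than the deleted ones, 4 lay above 0 and 6 below, with a median of −0.0018. Those with the smallest p were trm10, a guanine methyltransferase gene (−0.08), slm3, annotated as a tRNA thiouridylate methyltransferase gene (0.06), and mss1, a GTPase gene (−0.05). Of 8 synthetase genes named after their budding yeast mitochondrial counterparts, 5 lay above 0, with 0.16 for dia4 (serine), −0.07 for msf1 (phenylalanine) and 0.18 for slm5 (asparagine).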

How the data were processed

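The authors deposited raw read counts per gene. The submitters' processing notes list Trimmomatic 0.36, TopHat2, featureCounts and the build ASM294v2, without the settings for strand, reads with several matches or overlapping genes. The authors' deposited table of the comparison, for which the notes name DESeq2, gives a mean signal, log2 fold changes with their errors, a test score and p-values.

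Counts of all genes were fitted with edgeR 4.0.16 in R 4.3.3. filterByExpr (minimum count 10, minimum total 15) kept 6813 of 7049 genes, libraries were scaled by TMM, and a robust quasi-likelihood model with genotype as its term was tested two-sided, with Benjamini-Hochberg adjustment over all genes and a threshold of 0.05. Isotype sums and the total replaced the single rows in refits. The ratios were tested by exact permutation over libraries. DESeq2 1.42.0, other scalings and filters, a replicate block and leaving out each library were alternatives. On data simulated from these libraries the fit recovered most of the genes that had been changed. However, the share of its calls that were false was above the threshold, and more so with the replicate block. The simulated libraries held no difference shared by libraries of the same replicate number. In the real libraries such deviations had a Pearson's r of 0.623 over all genes. The recovery therefore cannot tell how often real changes in mitochondrial tRNA genes would have been called here. Names came from RefSeq (ASM294v3) for 6844 genes; other mitochondrial genes were named where their coding length matched.

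The members and lists were chosen with earlier results of these data known. All 25 genes are reported; those given one by one have the 5 highest or lowest levels or the 5 largest or smallest fold changes, or share an isotype, and His, Gln, Trp and Asn were added after their values were seen. Lists are described by counts, with the 3 smallest p named. The rule for synthetases matched no gene, so 8 were listed by symbol after the files were seen; mto1 and mod5 were left out because these symbols name other genes in this organism, and mtu1, qri7 and gtpbp3 had no match. Errors marked SD are the spread between libraries. Standard errors and intervals of fold changes come from the edgeR fit, which shares its estimate of spread across genes. Reads carry no molecular identifiers.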

Additional observations from a re-analysis of the deposited data

How the results depend on the processing

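With 2 libraries per genotype, a single library can set a value. Without each library in turn 3 to 5 genes were called, 3 of them without the second wild-type library, 0 mitochondrial tRNA genes were called and 19 to 24 lay above 0. The log2 fold change then ran from −0.066 to 0.94 for Ala, −0.22 to 0.90 for Asn, −0.0048 to 0.47 for Asp, −0.28 to 0.23 for Cys, −0.11 to 0.22 for Ile.01, −0.21 to 0.36 for Leu.01, −0.12 to 1.41 for Lys, −0.0089 to 0.84 for Phe and −0.20 to 0.49 for Tyr, and the log2 ratio to nuclear tRNA from −0.38 to 0.013. With library totals alone, 4 members lay above 0, the sum was −0.079, and the isotype sums were −0.22 (Ile), −0.25 (Leu), −0.091 (Met) and −0.23 (Ser). Single genes were then at −0.093 (Met.02), −0.11 (Phe), −0.22 (Asp), −0.38 (Leu.01), −0.041 (Trp), −0.15 (Leu.02), −0.20 (His), −0.13 (Pro), −0.25 (Gln), −0.38 (Ile.01), −0.36 (Cys), −0.26 (Val), −0.31 (Tyr), −0.18 (Ile.02), −0.29 (Ser.02), −0.012 (Ala), −0.064 (Ser.01), −0.11 (Asn), −0.075 (Met.01), −0.11 (Arg.01) and −0.17 (Thr). The median of all genes moved by −0.42 with that scaling. DESeq2 called 52 genes, 1 of them mitochondrial tRNA.

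The labels do not pair the libraries, and the genotypes share only replicate numbers 1 and 2. Deviations of same-numbered libraries had a Pearson's r of 0.623 over all genes. With the replicate number as a block, 825 genes were called (12.1%) and 12 of the 25 members, 24 members lay above 0, Cys was at −0.0039, the sum was at 0.39 (edgeR adjusted p = 1.14e-05), all 5 isotype sums of more than 1 gene were called (edgeR adjusted p from 4.28e-10 for Arg to 0.00176 for Ile) and the ratio to other mitochondrial genes at 0.46. The cause was not tested, and on simulated data this fit made a larger share of false calls than the fit without the block. Those data held no difference shared by same-numbered libraries, so they cannot tell whether the calls made here are false.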
